A study of Heterocephalus glaber with 6 samples.

Results

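The 100 loci described here were those whose transcripts stood lowest in naked mole-rat epidermis after combined DMBA/TPA treatment, relative to every other library of the study. They were taken from 33281 gene IDs, called loci. Read counts were scaled to CPM, the counts a locus would have per 1000000 counts of its library, and 11788 loci with at least 2 CPM in all 6 libraries outside the DMBA/TPA group were eligible. For each, the lowest CPM of those 6 libraries plus 0.5 was divided by the higher of both DMBA/TPA values plus 0.5. The members were chosen by the 100 highest ratios, so their low CPM after DMBA/TPA was the criterion of choice and is given as a description. No member was lost outright, since each had at least 4 counts in each DMBA/TPA library.

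Naked mole-rats are subterranean rodents known for long life and rare tumours. DMBA is a polycyclic hydrocarbon that forms DNA adducts and acts as a tumour initiator in mouse skin. TPA is a phorbol ester that activates protein kinase C, and in mouse skin its repeated use makes keratinocytes proliferate, thickens the epidermis and draws in inflammatory cells. The epidermis is renewed from basal keratinocytes that stop dividing and switch genes on and off as they move outward.

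All animals were of wild-type genotype and 6 to 7 months of age, and the dorsal skin was treated. The DMBA group received 1 application of 100 µl at 1 mg/ml and its skin was taken on day 10. In the DMBA/TPA group the same application was followed by TPA at 0.1 mg/ml, 2 times per week, until harvest on day 46. Each regimen had its own controls given acetone, the solvent, for which the sources used here give no harvest day. Every group had 2 libraries, numbered 1 and 2 here, so 8 libraries were compared. The labels name no individual animals and do not say whether animals were pooled, so the p-values cover the variation among these libraries, part or all of which may be technical. Each count column is headed with a different number, and the headers do not say what it stands for. Treatment and harvest day differed together between the treated groups and cannot be told apart. Total counts ranged from 22852358 to 27486387 in the 4 acetone libraries and from 30080934 to 38124702 in the 4 treated ones.

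Gene symbols are lacking throughout, because none of the IDs matched the gene table used here. The members are therefore described by ID, level and pattern, and the epidermal identity of the tissue was not checked against marker genes. Of the members, 87 had IDs of transcript-assembly format (MSTRG) and 13 had Ensembl-format IDs (ENSHGLG). Among the eligible loci 16.5% were of Ensembl format, so the members' 13 of 100 was close to that share.

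The members differed by orders of magnitude in abundance. Their median CPM over the 6 other libraries ran from 2.51 at MSTRG.255 to 897.5 at MSTRG.5106, with a median of 11.8. In that measure 17 members lay between 2 and 5 CPM, 50 between 5 and 20, 21 between 20 and 100, and 12 above 100. Of the eligible loci 9.02% fell in the lowest of these classes, 38.1% in the next, 39.4% in the third and 13.5% in the highest. The members were thus more often weakly expressed than the eligible loci.

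Against the mean of the 6 other libraries, mean CPM after DMBA/TPA was lower by a median factor of 4.52, with a range from 2.11 at MSTRG.12506 to 38.1 at MSTRG.8253. Relative to the acetone controls of DMBA/TPA alone, the median factor was 5.72. All 100 members were at least 2 times lower than those controls and 69 were at least 4 times lower. Among the eligible loci 22.2% and 2.88% were, but this contrast chose the members and nothing is read from the comparison. In epidermis as a bulk tissue, fewer cells of a kind and less RNA per cell cannot be told apart.

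**Figure D1:**
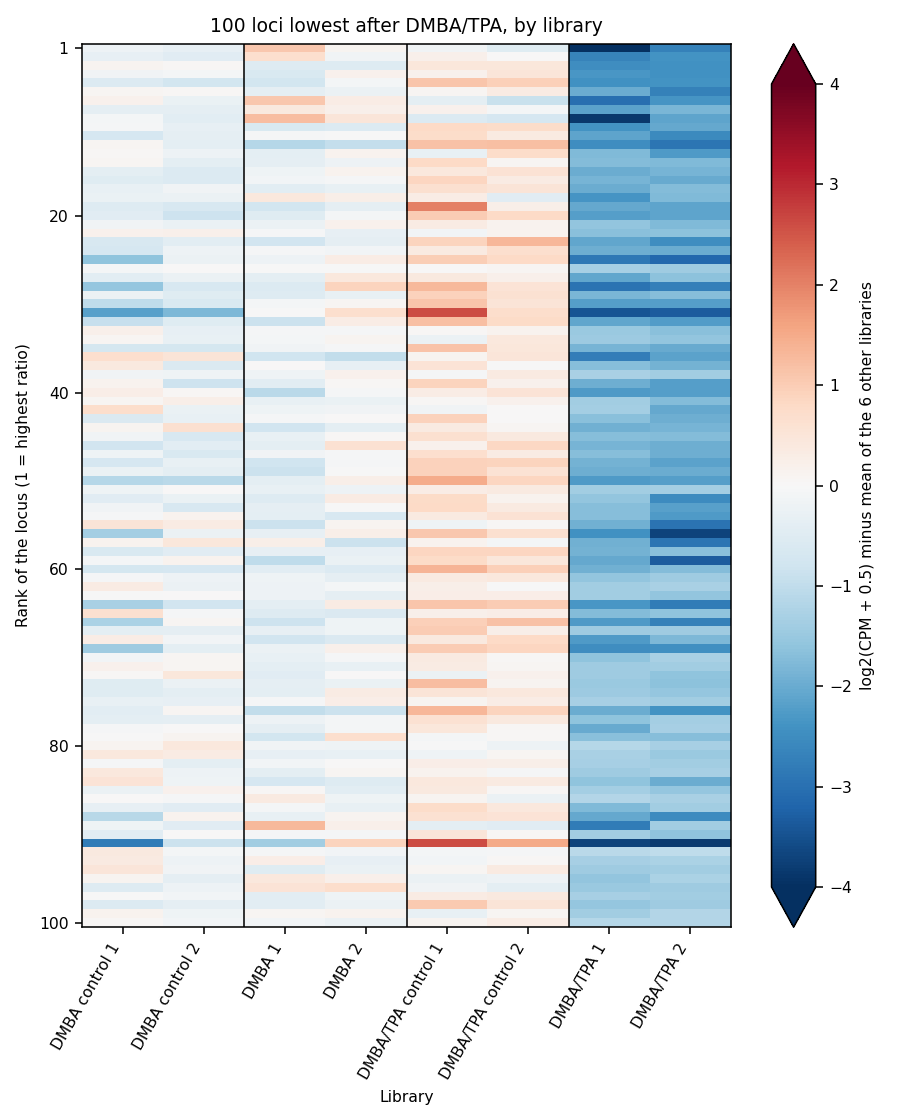
Each row is 1 of the 100 loci in rank order and each column a library; colour gives log2(CPM + 0.5) minus the locus's mean over the 6 libraries outside DMBA/TPA. Both DMBA/TPA columns are below 0 throughout because the loci were chosen for this, while the DMBA/TPA control columns are above 0 in 81 and 85 of the rows. The mean includes these control libraries, and the share over the eligible loci was not counted, so nothing is read from these counts.

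The 3 highest ranked loci had few reads left after DMBA/TPA. MSTRG.82, rank 1, was at 17.2 and 15.9 CPM in the DMBA controls, 43.2 and 21.5 after DMBA, 18.1 and 14.2 in the DMBA/TPA controls, and 0.376 and 2.68 after DMBA/TPA. The lower of these values rests on 13 counts, and the DMBA/TPA libraries were both low but far from equal. ENSHGLG00000017754, rank 2 and the highest ranked Ensembl-format member, had 2.63 and 2.36 CPM in the DMBA controls, 5.75 and 3.04 after DMBA, and 4.03 and 3.44 in the DMBA/TPA controls. After DMBA/TPA it had 0.116 and 0.236 CPM, which rest on 4 and 9 counts. MSTRG.9754, rank 3, was the most even of these: it had 14.0 and 13.5 CPM in the DMBA controls, 9.04 and 9.00 after DMBA, 18.0 and 18.2 in the DMBA/TPA controls, and 1.91 and 2.05 after DMBA/TPA. There the libraries of each group lay close together, and the groups did not overlap.

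Ranks 4 to 6 were all assembled loci. MSTRG.4837 had 63.2 and 65.6 CPM in the DMBA controls, 45.0 and 77.5 after DMBA, 78.2 and 98.0 in the DMBA/TPA controls, and 13.6 and 12.5 after DMBA/TPA. MSTRG.9494 had 35.4 and 31.0 CPM in the DMBA controls and 31.1 and 49.4 after DMBA, against 112.7 and 99.9 in the DMBA/TPA controls and 9.21 and 9.55 after DMBA/TPA. Here the DMBA/TPA controls stood above all other libraries, so the distance to them was larger than the distance to the other 4. MSTRG.16919 had 12.5 and 12.1 CPM in the DMBA controls, 9.08 and 9.93 after DMBA, 12.5 and 14.8 in the DMBA/TPA controls, and 2.58 and 1.36 after DMBA/TPA. Its control sets overlapped, and both DMBA values lay below them.

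Ranks 7 to 10 were assembled loci as well. MSTRG.99 and MSTRG.96, ranks 7 and 9, shared the pattern of MSTRG.82 and are described with it further on. MSTRG.6909, rank 8, had 4.86 and 4.84 CPM in the DMBA controls, 8.54 and 7.46 after DMBA, 7.27 and 6.00 in the DMBA/TPA controls, and 1.07 and 1.42 after DMBA/TPA. MSTRG.8209, rank 10, had 3.33 and 2.62 CPM in the DMBA controls, 2.09 and 2.21 after DMBA, 6.41 and 6.00 in the DMBA/TPA controls, and 0.261 and 0.446 after DMBA/TPA. Its DMBA/TPA libraries held 9 and 17 counts. In these loci the DMBA/TPA values lay apart from all others, and the order of the other groups varied from locus to locus.

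**Figure D2:**
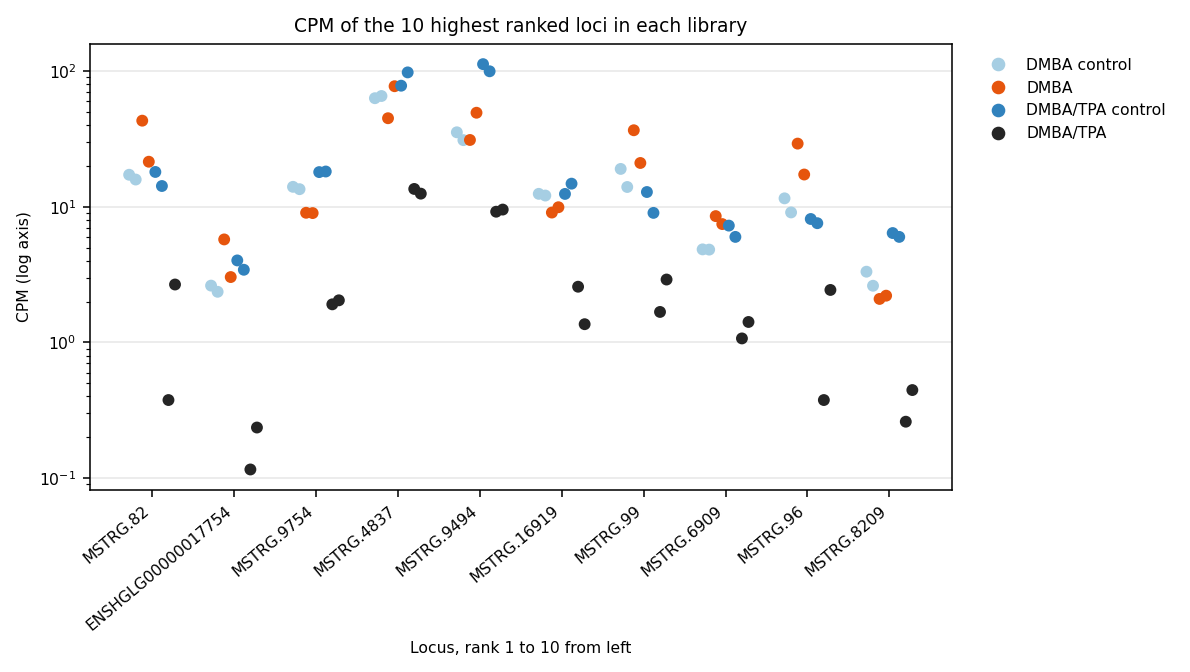
Points give the CPM of each library, on a log axis, for the loci of rank 1 to 10 from left to right, with colour for the group. The DMBA/TPA points lie lowest at every locus, as the choice requires, and differ most from each other at MSTRG.82 (0.376 and 2.68 CPM) and MSTRG.96 (0.376 and 2.44 CPM).

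Of the Ensembl-format members, the 4 next in rank had unlike patterns outside DMBA/TPA. ENSHGLG00000014199, rank 22, was nearly flat, at 3.98 and 4.11 CPM in the DMBA controls, 3.39 and 2.67 after DMBA, and 3.25 and 3.89 in the DMBA/TPA controls, before 0.753 and 0.787 after DMBA/TPA. ENSHGLG00000025707, rank 51, had group means of 7.27, 6.37 and 9.80 CPM in the DMBA controls, DMBA and the DMBA/TPA controls against 2.64 after DMBA/TPA. Both its DMBA/TPA controls (9.66 and 9.94 CPM) lay above the DMBA control and DMBA libraries. ENSHGLG00000004497, rank 28, varied more: it had 6.52 and 12.7 CPM in the DMBA controls, 13.5 and 37.6 after DMBA, 49.8 and 29.6 in the DMBA/TPA controls, and 2.17 and 2.60 after DMBA/TPA. ENSHGLG00000011158, rank 13, had 5.75 and 12.3 CPM in the DMBA/TPA controls, a spread that overlaps its values in the DMBA controls (7.31 and 6.08) and after DMBA (5.29 and 7.83).

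At the threshold the members passed without a break into the loci left out. ENSHGLG00000013836 and MSTRG.6347, ranks 99 and 100, had mean CPM of 36.8 and 6.59 in the DMBA controls, 40.0 and 5.93 after DMBA, 34.9 and 7.80 in the DMBA/TPA controls and 14.97 and 2.76 after DMBA/TPA. MSTRG.2062 and MSTRG.14487, the next in rank and no longer members, had mean CPM of 141.7 and 4.87 in the DMBA controls, 109.6 and 3.39 after DMBA, 232.3 and 4.58 in the DMBA/TPA controls and 45.9 and 1.32 after DMBA/TPA. The ratio that ranked them was 1.86 for both members and for MSTRG.2062 and 1.85 for MSTRG.14487, against 4.64 for rank 1.

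The choice was repeated with 1 DMBA/TPA library left out, and that library was then set against the 6 others. The floor of these 6 had been used in the choice, so the shares of eligible loci given beside the counts are not what no change would give, and the counts are a description. When 100 loci were chosen with the second DMBA/TPA library left out, all 100 were below the 6 other libraries in that second library, where 45.5% of the eligible loci were. With the first DMBA/TPA library left out, 93 of the 100 chosen loci were below the 6 others in it, against 36.1% of the eligible loci. The median ratio of the chosen loci was 2.25 in the library that chose them and 2.28 in the second library when that one was held out, and 2.58 and 1.95 when the first was held out. The 7 exceptions were loci below the 6 others in the second DMBA/TPA library alone. The sharpest were MSTRG.9451 and MSTRG.5627, at 14.1 and 11.8 CPM in the first DMBA/TPA library against a lowest value elsewhere of 2.49 and 2.76, named after their values were seen. These sets shared 79 and 52 loci with the members.

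Among the groups outside DMBA/TPA the rule set no direction, but it used the lowest value of their 6 libraries. That value lay in the DMBA controls at 50 members, in DMBA at 42 and in the DMBA/TPA controls at 8. Tests among these groups are therefore not free of the choice, and its effect on them was not tested. Counts were compared with edgeR's quasi-likelihood test, scaled by TMM (a trimmed mean of ratios between libraries), in 1 fit over the 18422 loci that passed a low-count filter. A locus was called at a Benjamini-Hochberg adjusted p below 0.05. Shares of called loci given without a direction count both directions. All 100 members passed the filter, as their minimum level ensures.

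No member was called after DMBA alone on day 10. Of all tested loci 0.836% were called higher and 0.271% lower after DMBA, and of the members 0 were called in either direction (lowest edgeR adjusted p 0.0667, at MSTRG.4990). At an unadjusted p below 0.05, 29 members passed, 22 higher and 7 lower, which is 29 of 100 against 17.9% of all tested loci. DESeq2 called 5 members higher and 1 lower, near the 4.77% of all loci it called. The members' median log2 fold change was 0.30 against 0.00 for all loci, and 69 of them were above 0, as were 53.9% of the eligible loci. With total counts as the scale these medians were 0.11 and -0.18. In CPM, both DMBA libraries lay above both controls at 31 members and below them at 26, where 14.2% and 33.9% of the eligible loci did.

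MSTRG.4990 had the smallest p of the members in this comparison and was named after its values were seen. It had 19.1 and 17.0 CPM in the DMBA controls and 6.55 and 5.65 after DMBA, a log2 fold change of -1.38 ± 0.293 (SE; edgeR adjusted p = 0.0667). In the DMBA/TPA controls it had 12.9 and 16.7 CPM and after DMBA/TPA 1.30 and 2.31. Both treated groups were thus below both control sets, with the DMBA/TPA values the lower.

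Most members were highest in the acetone controls of DMBA/TPA. The group mean was highest there at 74 members, in the DMBA controls at 14 and after DMBA at 12, where 40.5%, 30.2% and 13.7% of the eligible loci had theirs. At 54 members both DMBA/TPA controls lay above all 4 libraries of the DMBA controls and DMBA, as they did at 19.5% of the eligible loci. Both lay above both DMBA controls at 64 members and below them at 7, against 27.1% and 26.2% of the eligible loci.

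In the test between the control sets, 11 members were called higher in the DMBA/TPA controls and 0 lower, where 0.565% and 0.147% of all tested loci, and 0.747% and 0.195% of the eligible ones, were called. The members' median log2 difference was 0.44 against -0.02 for all tested loci, and with total counts or upper-quartile scaling the members' median was 0.51 or 0.49. At an unadjusted p below 0.05, 44 members were higher and 0 lower, where 16.3% of all tested loci passed in either direction. The calls did not hold when single libraries were left out, inside or outside this comparison: 0 members were called without the first DMBA control library, without the first DMBA/TPA control library or without either DMBA/TPA library, and 4 without the second DMBA control library. Over the whole table the share called in these 5 fits was between 0.00517% and 0.555%, against 0.711% with all libraries. The members' median log2 difference was between 0.35 and 0.49 in these fits, against 0.44 with all libraries. It was 0.55, and calls remained, without the second DMBA/TPA control library. Without the first or second DMBA library 19 or 18 were called, each time with 0 lower, and the share over all loci was 4.63% or 4.46%. With both columns of each control sample summed into 1 library 0 were called (edgeR, no locus of the whole table was).

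The 4 called members of smallest p included a pair with consecutive ID numbers. MSTRG.9494 and MSTRG.9495 had log2 differences of 1.62 and 1.49 between the control sets, with standard errors of 0.215 and 0.197 (edgeR adjusted p = 0.0266 for both). MSTRG.9495 had 100.6 and 78.7 CPM in the DMBA controls, 100.03 and 132.4 after DMBA, 283.4 and 240.3 in the DMBA/TPA controls, and 29.4 and 31.6 after DMBA/TPA. The profile was that of MSTRG.9494 at a higher level, with the DMBA controls and DMBA overlapping and the DMBA/TPA controls above both.

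MSTRG.12597 and MSTRG.8756 were the other two. MSTRG.12597 had 357.0 and 373.1 CPM in the DMBA controls, 596.7 and 927.4 after DMBA, 2169 and 1407 in the DMBA/TPA controls, and 163.4 and 168.9 after DMBA/TPA. The difference between the control sets was 2.24 ± 0.286 on the log2 scale (SE; edgeR adjusted p = 0.0266). MSTRG.8756 had 6.48 and 6.69 CPM in the DMBA controls, 7.98 and 7.35 after DMBA, 28.8 and 21.5 in the DMBA/TPA controls, and 2.52 and 2.89 after DMBA/TPA, and its control sets differed by 1.87 ± 0.252 on the log2 scale (SE; edgeR adjusted p = 0.0266). In both, the DMBA/TPA controls exceeded the DMBA controls by more than the libraries of either set differed. All 4 calls were lost in the same 6 of 15 alternative fits, which left out the first or second DMBA control, the first DMBA/TPA control or either DMBA/TPA library, or summed the control columns. No direction turned in any of the 15.

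The other 7 called members had log2 differences from 1.30 at MSTRG.1947 to 3.97 at MSTRG.9074. MSTRG.9074, named for this extreme, had 6.04 and 8.04 CPM in the DMBA controls, 28.8 and 46.1 after DMBA, 179.5 and 47.9 in the DMBA/TPA controls, and 2.20 and 2.41 after DMBA/TPA. The DMBA/TPA controls differed more from each other here than at any other member, but were both above every other library.

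**Figure D3:**
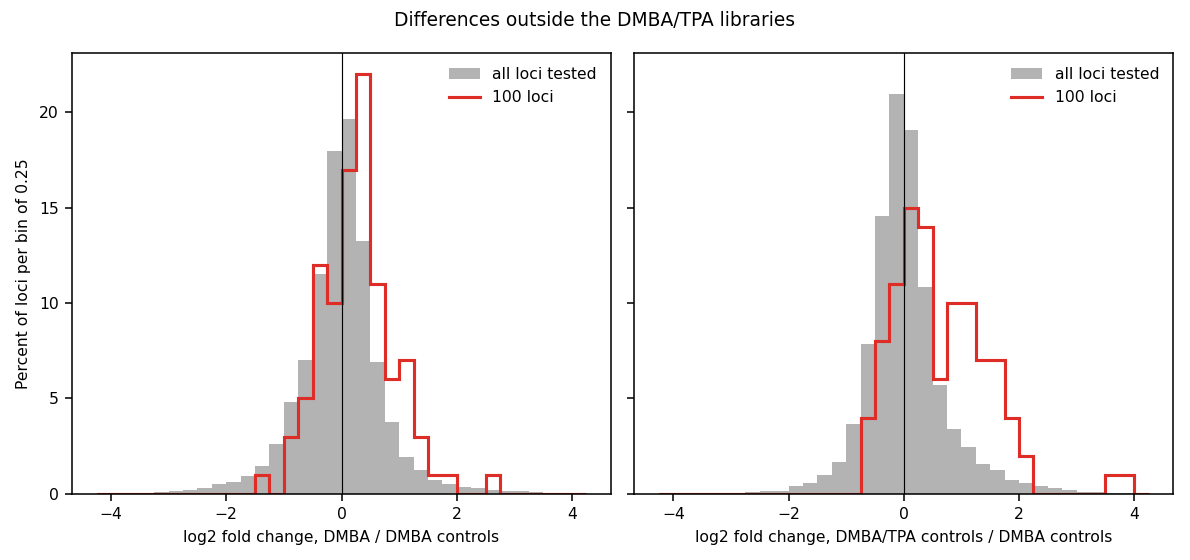
The panels show the distribution of log2 fold changes from edgeR for DMBA over its controls (left) and for the DMBA/TPA controls over the DMBA controls (right), as percent of loci per bin, for all 18422 tested loci (grey) and the 100 members (red). The members' median is 0.30 on the left and 0.44 on the right; both comparisons use the DMBA control libraries.

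The most abundant members followed this pattern, with group means rising from the DMBA controls through DMBA to the DMBA/TPA controls. At MSTRG.5106 and MSTRG.3272 the DMBA and DMBA control libraries overlapped. MSTRG.5106, the most abundant, had 488.0 and 662.3 CPM in the DMBA controls, 511.3 and 1133 after DMBA, 2157 and 1573 in the DMBA/TPA controls, and 217.2 and 197.3 after DMBA/TPA. The control sets did not overlap, but the difference of 1.63 on the log2 scale was not called (edgeR adjusted p = 0.0757). MSTRG.12047 had 279.9 and 281.6 CPM in the DMBA controls, 418.7 and 442.8 after DMBA, 1023 and 628.6 in the DMBA/TPA controls, and 126.7 and 112.7 after DMBA/TPA, and it was called higher in the DMBA/TPA controls, by 1.50 on the log2 scale (edgeR adjusted p = 0.0368).

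MSTRG.3389 and MSTRG.3272, with MSTRG.5106, MSTRG.12597 and MSTRG.12047 the 5 most abundant members, had a wide spread in the DMBA/TPA controls. MSTRG.3389 had 441.2 and 447.3 CPM in the DMBA controls, 461.9 and 512.4 after DMBA, 1160 and 687.3 in the DMBA/TPA controls, and 215.0 and 216.8 after DMBA/TPA. MSTRG.3272 had 290.9 and 345.3 CPM in the DMBA controls, 321.3 and 337.7 after DMBA, 969.1 and 437.6 in the DMBA/TPA controls, and 145.9 and 130.0 after DMBA/TPA. At all 5 of these loci the first DMBA/TPA control library was the highest of the 8, and the DMBA/TPA libraries lay close to each other.

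Summed over the members, the group means had the same order, but abundant loci weigh most in a sum. Together the members held 4518 and 4765 CPM in the DMBA controls, 4821 and 6277 after DMBA, 12244 and 8634 in the DMBA/TPA controls, and 1721 and 1654 after DMBA/TPA. Without MSTRG.5106 the sums were 4030 and 4102, 4309 and 5144, 10087 and 7061, and 1504 and 1457 CPM in that order. After TMM scaling they were 3952 and 4533, 5135 and 6313, 11058 and 7262, and 2002 and 2105 CPM. The DMBA/TPA controls stood above the other groups on each of these scales, and the second DMBA library had the highest sum of the DMBA and DMBA control libraries.

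**Figure D4:**
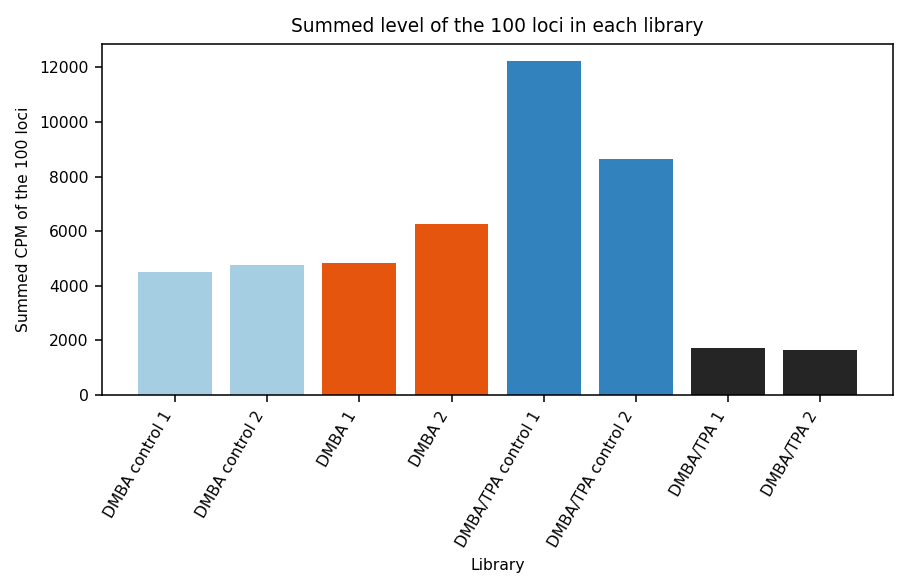
Bars give the summed CPM of the 100 members in each library, starting at 0. The DMBA/TPA bars (1721 and 1654) are lowest, as the choice requires, and the DMBA/TPA control bars (12244 and 8634) are highest.

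A smaller set of members was highest after DMBA. Of the 12 loci with their highest group mean there, 4 had ID numbers between 82 and 99: MSTRG.82, MSTRG.90, MSTRG.96 and MSTRG.99. The table held 18 loci with numbers in that run, of which 9 were eligible and these 4 were members. The run was drawn to begin and end at members, so 4 of 9 is raised by that choice and nothing is read from it. Of all 11788 eligible loci 100 were members. What the order of the numbers stands for is not stated in the labels or files, and pieces of 1 transcript could carry separate IDs.

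These 4 loci had 1 profile across the libraries. MSTRG.99 had 19.0 and 14.0 CPM in the DMBA controls, 36.7 and 21.1 after DMBA, 12.9 and 9.03 in the DMBA/TPA controls, and 1.68 and 2.91 after DMBA/TPA. MSTRG.96 had 11.6 and 9.10 CPM in the DMBA controls, 29.3 and 17.3 after DMBA, 8.14 and 7.58 in the DMBA/TPA controls, and 0.376 and 2.44 after DMBA/TPA. MSTRG.90, rank 89, had 7.40 and 6.04 CPM in the DMBA controls, 21.4 and 9.73 after DMBA, 6.29 and 6.00 in the DMBA/TPA controls, and 0.782 and 2.91 after DMBA/TPA. In each of the 4 the first DMBA library was the highest of all and the first DMBA/TPA library the lowest, and both acetone groups lay between.

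After DMBA 0 of these 4 members were called. They had been grouped by a highest mean CPM after DMBA, so the sign of their log2 fold changes was set by that choice. The alternative fits reuse the same libraries and are given as a description. The log2 fold changes were 1.16, 1.42, 1.37 and 1.01 for MSTRG.82, MSTRG.90, MSTRG.96 and MSTRG.99, with standard errors of 0.616, 0.541, 0.584 and 0.362 (edgeR adjusted p from 0.198 to 0.368). They stayed above 0 in all 15 alternative fits of each and passed the threshold in none. Between the DMBA/TPA libraries MSTRG.82, MSTRG.96 and MSTRG.90 had the 3 largest ratios of the members, with the second library higher each time. MSTRG.90 and MSTRG.96 were not called lower than the DMBA/TPA controls (edgeR adjusted p = 0.141 and 0.0525).

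Not every locus of the run behaved in this way. MSTRG.83, between them in number, was eligible at rank 9394 and had 21.4 and 14.4 CPM after DMBA/TPA against 17.1 and 20.2 in its controls. MSTRG.86, which was not eligible, had 1.44 and 1.06 CPM in the DMBA controls, 249.2 and 136.9 after DMBA, 4.15 and 0.994 in the DMBA/TPA controls, and 1.59 and 0.708 after DMBA/TPA, and was named after its values were seen. It rose after DMBA by 7.47 ± 0.707 on the log2 scale (SE; edgeR adjusted p = 0.00668), and its first DMBA library was the higher, as at the 4 members.

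**Figure D5:**
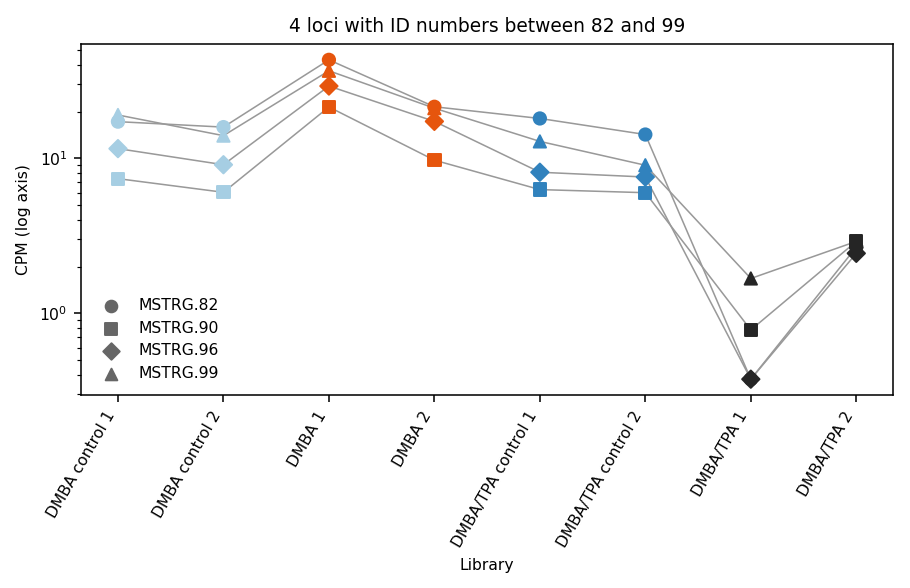
Lines join the CPM of 4 members with ID numbers between 82 and 99 across the 8 libraries, on a log axis, with colour for the group and shape for the locus. All 4 peak in the first DMBA library, between 21.4 and 43.2 CPM, and are lowest in the first DMBA/TPA library, between 0.376 and 1.68 CPM.

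Apart from that run, 8 members formed 4 pairs with consecutive numbers: MSTRG.6909 with MSTRG.6910, MSTRG.7322 with MSTRG.7323, MSTRG.8536 with MSTRG.8537, and MSTRG.9494 with MSTRG.9495. MSTRG.6910 had 12.2 and 12.5 CPM in the DMBA controls, 19.9 and 17.3 after DMBA, 18.0 and 10.5 in the DMBA/TPA controls, and 2.46 and 3.93 after DMBA/TPA, so that, like MSTRG.6909, it was highest after DMBA. MSTRG.8536 had 30.5 and 79.7 CPM in the DMBA controls, 81.2 and 116.0 after DMBA, 185.8 and 162.9 in the DMBA/TPA controls, and 12.4 and 10.2 after DMBA/TPA. MSTRG.8537 had 6.83 and 15.5 CPM in the DMBA controls, 14.5 and 22.0 after DMBA, 39.7 and 28.8 in the DMBA/TPA controls, and 3.01 and 0.970 after DMBA/TPA. Both loci of this pair were low in the first DMBA control library, and they were highest in the DMBA/TPA controls.

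The members of the pair MSTRG.7322 and MSTRG.7323 had log2 differences of 1.19 and 1.10 between the control sets, neither of them called (edgeR adjusted p = 0.102 and 0.0721). Loci that neighbour a member by number but are not members numbered 94 among the eligible. In 35 of these, or 37.2%, both DMBA/TPA libraries were below all 6 others, close to the 31.6% of all eligible loci.

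A further 14 members were highest in the DMBA controls. Their median log2 difference between the DMBA/TPA and the DMBA controls was -0.32, and their median log2 fold change after DMBA was -0.32 as well. The grouping by a highest mean in the DMBA controls set both medians below 0. Both comparisons use the DMBA control libraries, so these medians are not separate results. MSTRG.12506 belonged to this set, with 62.0 and 44.9 CPM in the DMBA controls, 45.8 and 44.1 after DMBA, 44.7 and 45.9 in the DMBA/TPA controls, and 22.2 and 23.1 after DMBA/TPA. Outside DMBA/TPA, 5 of its 6 libraries were nearly equal, and its drop was the smallest of the members.

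In the comparisons that chose the members, most also passed the test across all loci. Relative to the DMBA/TPA controls 96 members were called lower, where 12% of all tested loci were, and relative to DMBA 75 were, where 1.22% of all tested loci were. Nothing is read from these counts. The 4 members not called against the DMBA/TPA controls were MSTRG.12506, MSTRG.255, MSTRG.90 and MSTRG.96. Against DMBA only 1 or 2 members were called when DMBA/TPA library 1 or 2 was left out, 40 without either DMBA/TPA control library, and 23 with only the DMBA and DMBA/TPA libraries in the fit. The shares called over all loci in these fits were 0.145% and 0.0258%, 0.934% and 0.965%, and 0.712%.

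The scale bears on how low the members stood. The DMBA/TPA libraries had TMM factors of 0.860 and 0.786, and the 6 others factors from 0.939 to 1.19, so that CPM per library total places most loci lower after DMBA/TPA. The median log2 ratio of DMBA/TPA to its controls was -0.40 over the eligible loci with total counts and 0.08 with TMM. For the members it was -2.52 and -2.03. The rule chose the members on this contrast, so their distance below the eligible loci is a description and nothing is read from it. With TMM-scaled CPM in the rule 77 of the 100 members remained, 2 were no longer eligible, and the ratio at rank 100 was 1.55.

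Between the libraries of a group, the spread at the members was near that of the eligible loci in the DMBA controls and DMBA/TPA. It was smaller than theirs in DMBA and larger in the DMBA/TPA controls. The median absolute log2 ratio between the libraries of a group was 0.26 for the DMBA controls, 0.25 for DMBA, 0.25 for the DMBA/TPA controls and 0.18 for DMBA/TPA, against 0.24, 0.31, 0.18 and 0.18 over the eligible loci. More than 2-fold differences occurred at 6, 7, 5 and 7 members in these groups. MSTRG.8253, rank 91, had the widest in both the DMBA controls (2.76 and 12.0 CPM) and DMBA (8.14 and 41.2 CPM). It also had the largest fold of the members, with 136.9 and 64.0 CPM in the DMBA/TPA controls and 1.22 and 1.10 after DMBA/TPA. Its low rank came from the single value of 2.76 CPM in the first DMBA control library.

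The choice of members leaned on the libraries that set the floor. The lowest of the 6 other values came from the DMBA controls at 50 members, from DMBA at 42 and from the DMBA/TPA controls at 8. Without the first DMBA library, only 49 of the 100 members stayed among the 100 highest ratios, without the first DMBA/TPA library 52, and without the first DMBA control library 60. With the median of the 6 libraries in place of the lowest, 43 stayed and none of the first 10 was among the new first 10.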

How the data were processed

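Epidermis was separated from dermis with dispase (5 mg/ml), and RNA with an integrity number over 7 was depleted of ribosomal RNA and sequenced with a kit that keeps strand, per the labels' protocols. The authors deposited raw counts for each gene ID. TopHat2, Bowtie2, cutadapt and FastQC appear in the submitters' processing notes with no version or role; the sources used here do not give the build, annotation, counter or strand setting, so reads of overlapping, antisense or near-identical loci may be split or shared. The 8 count columns belong to 6 samples: each control sample has 2 columns, each taken as 1 library. Within groups, libraries differed beyond sampling noise (chi-square per degree of freedom from 26.2 to 137.4, loci with at least 20 counts). None of the count-table IDs matched any of the 42221 rows of the RefSeq gene table (H.glaber_assembly_v1.0), so no symbols, marker lists or sequences were used. For the same reason the markers listed for keratinocytes, melanocytes, Merkel cells, immune cells, fibroblasts, endothelium, muscle and sebocytes gave no value.

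Members and named loci were chosen with earlier results of these data known. Named were ranks 1 to 10, the 5 most abundant members, the 5 first Ensembl-format members, the members on either side of the threshold (ranks 99 and 100 and the next pair), up to 4 members per direction called in each comparison outside DMBA/TPA, and the 3 with the largest ratio between the DMBA/TPA libraries. Counts were fitted in R 4.3.3 with edgeR 4.0.16 (filterByExpr, minimum count 10 and total 15; TMM; robust quasi-likelihood; 4 groups, 4 residual degrees of freedom), which left 18422 loci; standard errors are the log2 fold change over the square root of F. CPM printed are per library total. The fit and the ranking were tested on simulated data. Alternatives were DESeq2 1.42.0, other scalings and filters, only the groups compared, summed control columns, a sample-number block, left-out libraries, and other settings of the ranking.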

Additional observations from a re-analysis of the deposited data

How the results depend on the processing

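Each group has 2 libraries, and the counts of called members differed between fits. Shares of all loci in brackets count calls in either direction. With all libraries in edgeR, 0.565% of the tested loci were called higher between the control sets. Called lower after DMBA/TPA were 12% against its controls and 1.22% against DMBA. In the test of DMBA, where 0 members were called, DESeq2 called 6 (4.77% of all loci), the unfiltered table gave 3 (1.98%), and there were 1 with total counts alone (0.771%) and 0 to 2 with 1 library left out. Between the control sets, 11 members were called (0.711% of all loci); DESeq2 called 28 (4.48%), the unfiltered table gave 19 (1.83%), and the count was 0 with the control columns summed and 0 to 19 with 1 library left out, and all of these were higher in the DMBA/TPA controls. DMBA/TPA against its controls gave 96 members (26.5% of all loci) and 72 to 96 with 1 library left out (6.9% to 32.3%). DMBA/TPA against DMBA gave 75 members (2.35% of all loci) and 26 with the control columns summed (0.596%). The count was 23 with only the DMBA and DMBA/TPA libraries fitted (0.712%) and 1 to 63 with 1 library left out (0.0258% to 6.23%). In both comparisons the share called over all loci thus moved between the fits as well.

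The DMBA and DMBA/TPA samples share the numbers 1 and 2. The same-numbered libraries did not deviate together (r = -0.000106 across 18422 loci). With 2 libraries per group this cannot decide whether the numbers pair them. With a replicate block 44 members were called in DMBA/TPA against DMBA (1.45% of all loci). Membership was 43 of 100 with the median of the 6 other libraries and 49 to 96 with 1 library left out; the cause was not tested. A left-out library assumes that the lone library of its group varies like the others. Depth limits the lowest members: 10 and 11 of them had fewer than 30 counts in the DMBA/TPA libraries.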
